A study of Homo sapiens with 8 samples.

Results

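The epithelial to mesenchymal state genes described here are CDH1, EPCAM, CDH2, VIM, FN1, ZEB1, ZEB2, SNAI1, SNAI2 and TWIST1. They were chosen by name, and all 10 were found among the 20263 genes of the table. They comprise 2 epithelial genes, 3 structural genes of the mesenchymal state and 5 transcription factors. RNA was sequenced from PANC-1 cells, an established human pancreatic ductal carcinoma line, after 24 h with 10 μM eupalinolide B (EB), a sesquiterpene lactone from Eupatorium lindleyanum, or with the solvent dimethyl sulfoxide (DMSO), in 4 libraries per group. All libraries come from this 1 line and this 1 time, and both groups share the line, the 24 h and the library preparation. The methods describe the libraries as biological replicates, though they mention triplicates elsewhere. Columns headed C were read as control, and columns headed H, a letter that no source used here explains, were read as EB, since the series has no other group.

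Epithelial cells hold to each other through E-cadherin, the product of CDH1, and build their cytoskeleton from keratins. In the mesenchymal state, E-cadherin gives way to other cadherins, vimentin joins or takes over the intermediate filament network, and cells deposit fibronectin. Transcription factors of the SNAI, ZEB and TWIST families bind E-box motifs in the CDH1 promoter and repress it, and carcinoma cells often sit between the 2 states.

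Levels are given as TPM, a share of the library's transcripts after correction for length, so levels of different genes within a library can be compared. Since TPM keep no read counts, the depth of the libraries and the counting error of a value are unknown. Between 11445 and 11894 genes had 1 TPM or more in a DMSO library, and between 11353 and 11595 in an EB library. The 13 mitochondrially encoded genes took 17.0% to 39.0% of the TPM with DMSO, where replicate 4 was the highest and stood apart, and 11.6% to 20.3% with EB. The line's labelled origin was checked against ductal carcinoma markers. KRT8, KRT18 and KRT19 were abundant and MUC1 was present, whereas KRT7, EPCAM and CDH1 stayed below 1 TPM in all 8 libraries. The acinar list was at 0, and the leukocyte, endothelial and islet lists summed to at most 2.08 TPM per library, with PTPRC and PECAM1 at 0.

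VIM alone stood at a high level. In the DMSO libraries its TPM was between 5882 and 6414, which ranked it 15th to 18th among all genes, and in the EB libraries between 6491 and 7771, 12th to 13th. Among nuclear genes alone its rank was 4 to 9 with DMSO and 6 to 7 with EB, so the groups overlapped. SNAI1 and ZEB1 followed at 6.33 to 15.6 TPM, and their ranges overlapped within each group. The other 7 genes did not exceed 0.798 TPM in any library. Among these, FN1 had the highest mean with DMSO. Its DMSO values did not overlap those of EPCAM but did overlap those of CDH1, and EPCAM and CDH1 overlapped too. With EB, the values of FN1 and EPCAM overlapped. CDH2, ZEB2 and TWIST1 had values of at most 0.0680 TPM, and with EB the values of CDH1, at most 0.0735 TPM, overlapped those of CDH2.

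**Figure D1:**
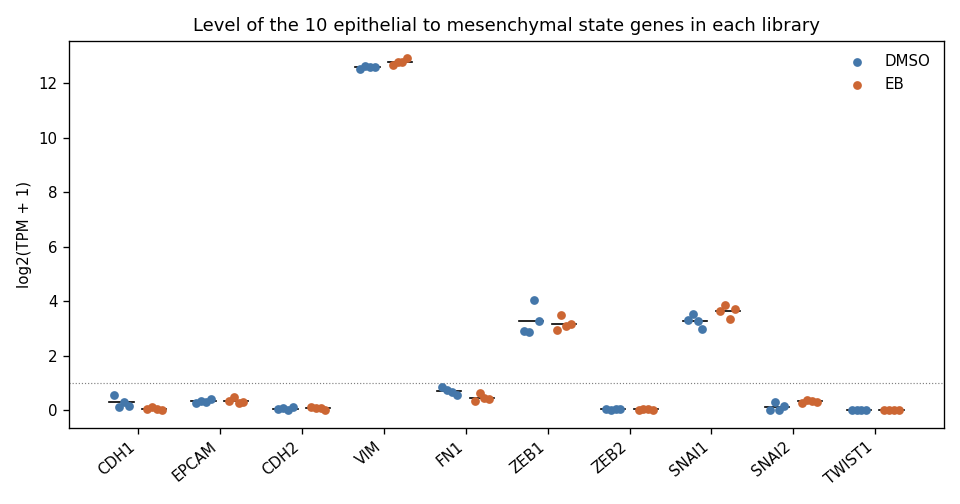
Level of each of the 10 genes on the log2(TPM + 1) scale, with 1 point per library, DMSO in blue and EB in orange, black lines at the mean of 4 libraries and a dotted line at 1 TPM. VIM lies far above the others, ZEB1 and SNAI1 lie in between, and 7 genes lie below the dotted line in all libraries.

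EB was compared with DMSO to learn which of these genes changed with treatment. The test was limma on log2(TPM + 1) in genes that had 1 TPM or more in 4 or more libraries, with Benjamini-Hochberg adjustment over the 11725 genes tested. On this scale the change of a gene near the pseudocount is understated. VIM, ZEB1 and SNAI1 passed the filter and 7 genes did not. None of the 3 tested genes was called at a limma adjusted p under 0.05, against 40.3% over the whole table, where 15.2% were higher and 25.1% lower. At an unadjusted p under 0.05, which 50.0% of all tested genes reached, 1 of the 3 passed, namely SNAI1. With the study's thresholds, a log2 fold change beyond 1.5 in either direction at an unadjusted p under 0.05, 0 of the 3 passed, against 2.08% of all tested genes. Without the filter, 0 of the 9 genes above 0 were called, against 30.6% of all 16142 genes fitted, and 5 had an unadjusted p under 0.05 (VIM, SNAI1, FN1, SNAI2 and CDH1), as had 41.5% of all genes in that fit. A p that misses the threshold does not show that the levels were alike, and the intervals below give the sizes that remain possible.

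VIM (ENSG00000026025) encodes vimentin, the intermediate filament protein of mesenchymal cells, and its hg38 position is chr10:17228241-17237593, plus strand. Its TPM in DMSO replicates 1 to 4 was 5882, 6414, 6135 and 6215, and in EB replicates 1 to 4 it was 6491, 7106, 7064 and 7771. Each EB library was above each DMSO library, and the means were 7108 ± 524 with EB and 6162 ± 220 with DMSO (SD, n = 4). The log2 fold change was 0.20 (standard error 0.11, 95% interval −0.05 to 0.45, limma adjusted p = 0.170). The exact two-sided permutation test over the 70 assignments of the libraries gave p = 0.0286, the smallest it can give, and 36.8% of all tested genes had groups that did not overlap. As a share of the TPM of nuclear genes alone, VIM took 0.709% to 1.02% with DMSO and 0.735% to 0.975% with EB, so that the groups overlapped. After mitochondrial genes were taken out and nuclear TPM rescaled, the log2 fold change was 0.02 (limma adjusted p = 0.922), whereas with quantile normalization it was 0.32 and VIM was called (limma adjusted p = 0.00970). Over the whole table the median log2 fold change was −0.11 with the TPM as deposited, −0.28 without the mitochondrial genes and 0.02 with quantile normalization.

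SNAI1 (ENSG00000124216) encodes Snail, a zinc finger repressor of CDH1 (chr20:49982980-49988886, plus strand). Its TPM was 8.93, 10.4, 8.70 and 6.76 in DMSO replicates 1 to 4 and 11.4, 13.4, 9.12 and 12.2 in EB replicates 1 to 4. Only EB replicate 3 fell within the DMSO range. The means were 11.5 ± 1.82 with EB and 8.70 ± 1.49 with DMSO (SD, n = 4). The log2 fold change was 0.37 (standard error 0.16, 95% interval 0.02 to 0.73, limma adjusted p = 0.0882). The exact two-sided permutation test gave p = 0.0571. SNAI1 was called with median-ratio scaling (0.49, limma adjusted p = 0.00716) and with quantile normalization (0.63, limma adjusted p = 0.00187), and not with the mitochondrial genes removed (0.21, limma adjusted p = 0.230). Without DMSO replicate 4, the library with the highest mitochondrial share, its log2 fold change was 0.27 (limma adjusted p = 0.132) and that of VIM 0.21 (limma adjusted p = 0.107).

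ZEB1 (ENSG00000148516), a zinc finger and homeodomain repressor of epithelial genes, spans chr10:31318495-31529814 on the plus strand. Its TPM was 6.54, 6.33, 15.6 and 8.66 in DMSO replicates 1 to 4 and 6.60, 10.4, 7.38 and 7.83 in EB replicates 1 to 4. DMSO replicate 3 was the highest of all 8, and the remaining libraries of both groups overlapped. The log2 fold change was −0.12 (standard error 0.26, 95% interval −0.69 to 0.45, limma adjusted p = 0.732), with a p of 0.80 in the exact two-sided permutation test. Without DMSO replicate 3 it was 0.14 (limma adjusted p = 0.581). With all libraries it was 0.16 with quantile normalization and 0.23 with the length and GC trend removed. The sign thus depends on that library and on the processing.

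**Figure D2:**
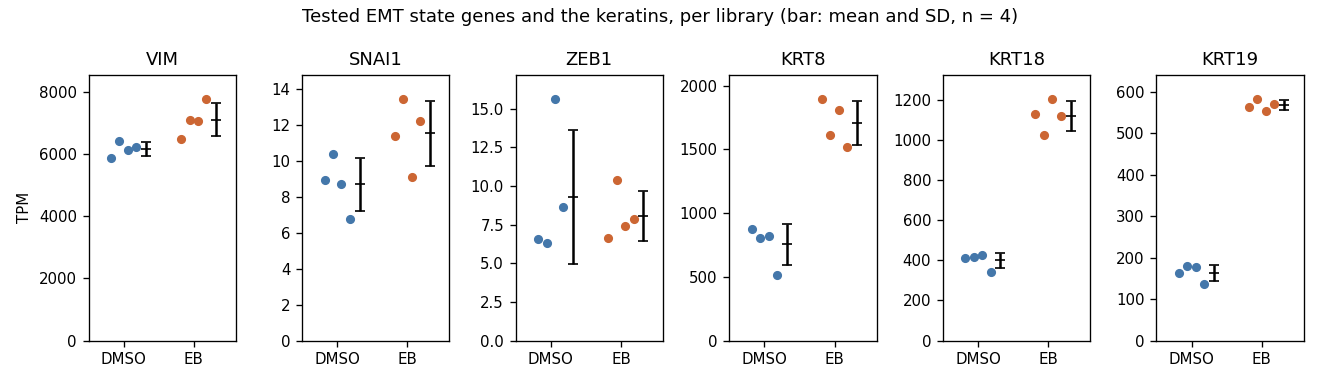
TPM of VIM, SNAI1, ZEB1, KRT8, KRT18 and KRT19, each on its own linear axis from 0, with 1 point per library and a bar for the mean and SD of 4 libraries per group. The 3 keratins lie higher in each EB library than in each DMSO library by a wide margin, VIM by a small one, and SNAI1 and ZEB1 overlap.

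**Figure D3:**
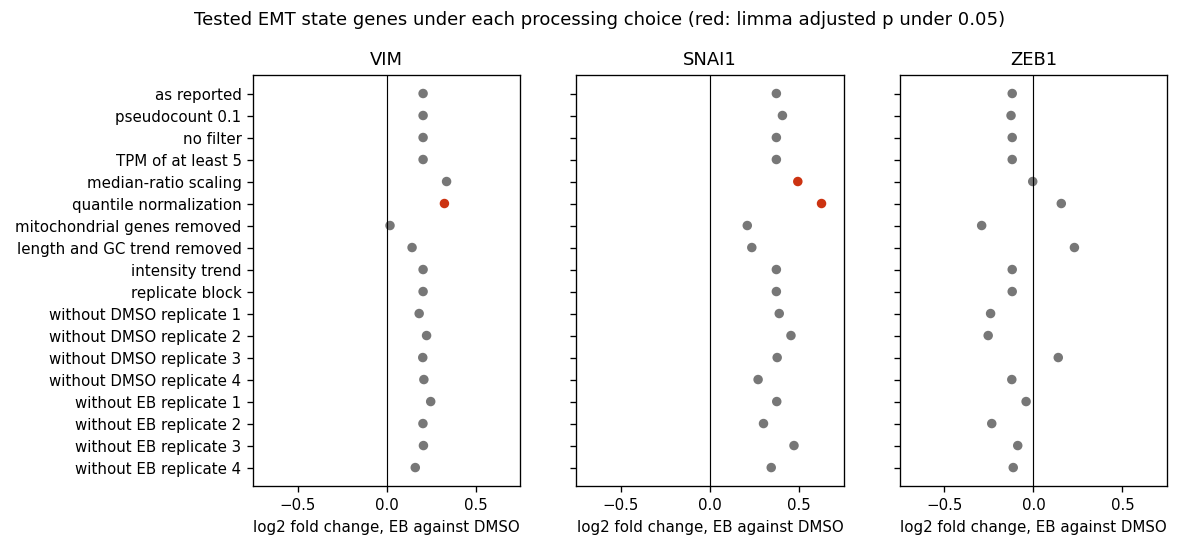
Log2 fold change of VIM, SNAI1 and ZEB1, EB against DMSO, as reported and under each alternative way of processing, red where the limma adjusted p was under 0.05. VIM and SNAI1 stay above 0 and are called under 1 and 2 alternatives, and ZEB1 lies on both sides of 0.

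CDH1 (ENSG00000039068) (chr16:68737292-68835537, plus strand) was nearly silent. It stood at 0.458, 0.0886, 0.235 and 0.119 TPM in DMSO replicates 1 to 4 and at 0.0310, 0.0735, 0.0316 and 0 in EB replicates 1 to 4. Each EB library lay below each DMSO library, with p = 0.0286 in the exact two-sided permutation test. The same held, in either direction, for 12.2% of the 4417 genes below the filter, and CDH1 was the only one of the 7 genes below the filter whose groups did not overlap. The difference was −0.24 with a pseudocount of 1 and −1.17 with a pseudocount of 0.1, so its size depends on the pseudocount. In the fit without a filter the limma adjusted p was 0.106.

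EPCAM (ENSG00000119888), an epithelial adhesion molecule at chr2:47345158-47387601, had 0.186 to 0.331 TPM with DMSO and 0.203 to 0.387 with EB. The groups overlapped, with p = 0.686 in the exact two-sided permutation test. CDH2 (ENSG00000170558) encodes N-cadherin, the cadherin usually found in mesenchymal cells. Its TPM was 0.0370, 0.0400, 0 and 0.0680 in DMSO replicates 1 to 4 and 0.0651, 0.0533, 0.0475 and 0 in EB replicates 1 to 4. Thus both cadherins of the classical switch were at very low levels in these libraries, with CDH1 the higher of the pair in each DMSO library and in EB replicate 2, CDH2 the higher in EB replicates 1 and 3, and both at 0 in EB replicate 4.

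FN1 (ENSG00000115414), the gene of fibronectin at chr2:215360440-215436073 (minus strand), had 0.798, 0.646, 0.594 and 0.451 TPM with DMSO and 0.271, 0.544, 0.365 and 0.311 TPM with EB. EB replicate 2 lay inside the DMSO range, and the exact two-sided permutation test gave p = 0.0571. SNAI2, the gene of Slug (ENSG00000019549), was listed at 0, 0.235, 0 and 0.0959 TPM with DMSO and stood at 0.206, 0.283, 0.269 and 0.237 TPM with EB. It was detected in all EB libraries, but EB replicate 1 lay below DMSO replicate 2 (p = 0.0571, exact two-sided permutation test). ZEB2 (ENSG00000169554), the paralog of ZEB1, did not exceed 0.0322 TPM, and TWIST1 (ENSG00000122691), a basic helix-loop-helix factor, was listed at 0 in all 8 libraries.

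Exons of VIM, ZEB1, ZEB2, CDH1, CDH2, SNAI2 and TWIST1 overlap annotated genes on the opposite strand, VIM-AS1 and ZEB1-AS1 among them, and whether reads were assigned by strand is not given in the sources used here. For EPCAM, FN1 and SNAI1 no such overlap was found.

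The mean log2(TPM + 1) of CDH1 and EPCAM minus that of the 8 mesenchymal genes was −2.07, −2.29, −2.28 and −2.17 in DMSO replicates 1 to 4 and −2.31, −2.37, −2.36 and −2.42 in EB replicates 1 to 4. The difference between the groups was −0.16, with no test. The epithelial mean was 0.30 with DMSO and 0.19 with EB, and the mesenchymal mean 2.50 and 2.56. CDH1, which did not exceed 0.458 TPM, differed by −0.24 and EPCAM by 0.02, so much of the difference came from 1 nearly silent gene. Of the 10 genes, CDH1 and VIM were those whose groups did not overlap. The same held for 12.2% of genes below the filter and 36.8% of all tested genes.

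The RNA level of VIM relative to keratin genes of simple epithelia differed more between the groups than VIM itself. KRT8 rose from 755 ± 164 TPM with DMSO to 1710 ± 175 with EB (SD, n = 4), by 1.20 on the log2 scale (limma adjusted p = 0.00109). KRT18, its filament partner, rose by 1.49 on the log2 scale and KRT19 by 1.80. MUC1, the fourth tested marker of ductal carcinoma, fell by 2.04. KRT7, EPCAM and CDH1 of the same marker list stayed below 1 TPM. KRT8, KRT18 and KRT19 were picked after their values were seen, so the shares that follow describe these keratins only. VIM took 80.2% to 86.2% of the summed TPM of VIM, KRT8, KRT18 and KRT19 with DMSO and 64.4% to 70.8% with EB. As a share of nuclear TPM, VIM itself overlapped between the groups. The ratio of VIM to KRT19 was 34.8 to 45.9 with DMSO and 11.5 to 13.6 with EB. KRT8, KRT18 and KRT19 were called higher under each scaling tried, including after the mitochondrial genes were removed (log2 fold changes of 1.02 for KRT8 and 1.62 for KRT19).

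Genes around the members were read in 7 lists with 146 genes, of which 99 were tested. Of these, 12 rose, 34 fell and 53 were not called, that is 46.5% called against 40.3% of all tested genes. Their median log2 fold change was −0.26, against −0.11 over all genes tested. Of the 99, 1 gene reached 1 TPM only in EB libraries and 4 only in DMSO libraries, so their calls do not support these counts. Fold changes also followed transcript length, with a Spearman rho of −0.48 over 11685 nuclear genes, a description since genes of a library share its depth and base composition. The tested list genes had a median transcript length of 3983 nt, against 3217 nt for all tested genes. Once the trend with length and GC content was removed from each library, 22 of the list genes were called higher and 29 lower, where the whole table had 23.0% called in each direction, and the median was −0.10, against −0.00 over all genes tested.

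**Figure D4:**
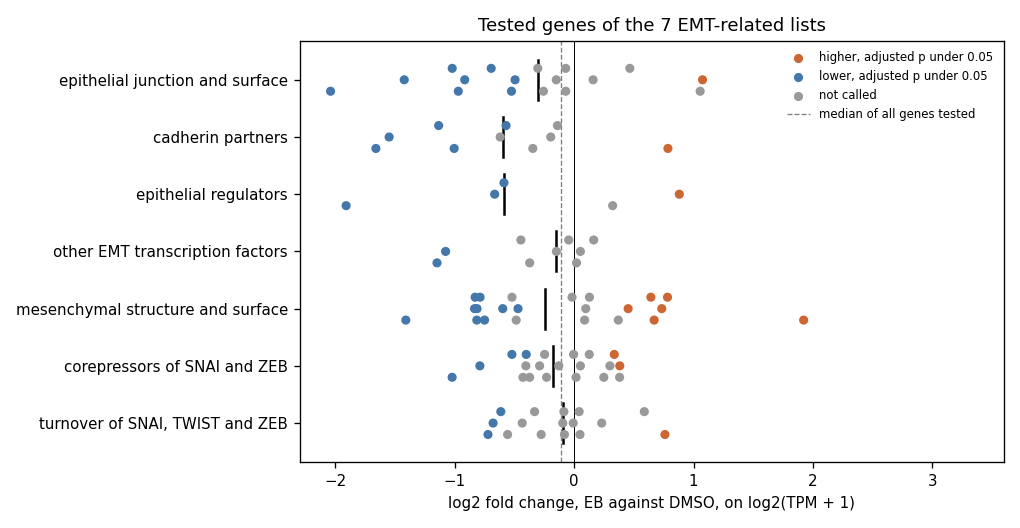
Log2 fold change of the tested genes of each list, EB against DMSO, with 1 point per gene, orange for genes called higher, blue for genes called lower and grey for genes not called, short black lines at the list medians and a dashed line at the median of all genes tested. In 6 of the 7 lists the median lies left of the dashed line, and each of these lists spans both sides of 0.

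Of the genes of epithelial junctions and of the cell surface, 8 of 17 tested genes fell, 1 rose and 8 were not called (median −0.30), where 25.1% of the whole table were lower and 15.2% higher. MUC1, a membrane mucin, fell by 2.04 on the log2 scale, from 18.5 ± 2.27 to 3.85 ± 1.36 TPM (SD, n = 4, limma adjusted p = 0.000148). TJP3, a tight junction scaffold, fell by 1.42, and the desmosomal plaque gene DSP fell by 1.02. OCLN, F11R, DSG2 and TJP1 also fell, but TJP1 was not called with the length and GC trend removed, nor OCLN without DMSO replicate 3 or without EB replicate 3. CRB3, a polarity gene, rose by 1.08, from 0.292 ± 0.305 to 1.70 ± 0.463 TPM. CRB3 passed the filter only through its EB libraries, and 2 genes of the list, TJP3 among them, only through their DMSO libraries, so these had to differ and their calls do not support the count. The claudins CLDN3 and CLDN7 stayed below 1 TPM, and CLDN1 and CLDN4 were not called. With the length and GC trend removed, the list median was −0.08, with 6 genes lower and 2 higher. The whole table then had a median of −0.00, with 23.0% called in each direction.

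The 10 cadherin partners, catenins and other proteins tied to adherens junctions, were all tested. Of these, 5 fell, 1 rose and 4 were not called (median −0.60), where 25.1% of the whole table were lower and 15.2% higher. CTNND1, the gene of p120 catenin, which stabilizes cadherins at the membrane, fell by 1.66 on the log2 scale, from 37.0 ± 9.76 to 11.4 ± 4.71 TPM (SD, n = 4, limma adjusted p = 0.00223). AFDN fell by 1.55, JUP, the gene of plakoglobin, by 1.14 and PLEKHA7, which passed the filter only through its DMSO libraries, by 1.01. PLEKHA7 thus had to differ, and its call does not support the count. CTNNAL1 rose by 0.79. CTNNA1 and CTNNB1, the genes of α-catenin and β-catenin, were not called, with log2 fold changes of −0.14 and −0.35. CTNND1, AFDN and JUP were also called lower with the length and GC trend removed, at −1.27, −1.13 and −0.98.

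Of the 16 epithelial regulators, 11 were not tested. ESRP1, a splicing regulator of epithelial cells, and GRHL2 were at or near 0. Of the 5 tested, EHF, RBM47 and FOXA1 fell, KLF4 rose and GRHL1 was not called. Over the whole table, 25.1% were lower and 15.2% higher. FOXA1 passed the filter only through its DMSO libraries. RBM47 needed its DMSO libraries too, with 1.33 to 2.55 TPM there and 0.525 to 1.02 TPM with EB, where only replicate 2 reached 1 TPM. FOXA1 and RBM47 thus passed through the group where they were high, and their calls do not support the count of genes that fell. EHF, an ETS factor of epithelia, went from 28.4 ± 8.18 to 6.75 ± 1.93 TPM (log2 fold change −1.91, limma adjusted p = 0.000759), and KLF4 from 2.04 ± 0.301 to 4.64 ± 0.999 TPM (0.88, limma adjusted p = 0.00248). Of the further transcription factors linked to the transition, 9 of 17 were tested. SOX4 fell by 1.15 and TCF12 by 1.08, none rose, and 7, among them FOXC1, ETS1 and TCF3, were not called. That is 22.2% called, against 40.3% of all tested genes.

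In the list of mesenchymal structure and surface genes, 6 of 22 tested genes rose, 9 fell and 7 were not called (median −0.24). Over the whole table, 15.2% were higher and 25.1% lower. Among the genes that rose were TAGLN, TPM2, MYL9, ITGA5 and TGFBI, the first 3 of which encode actin-binding or contractile proteins. TAGLN rose most, from 9.03 ± 2.29 to 36.5 ± 5.23 TPM (SD, n = 4, log2 fold change 1.92, limma adjusted p = 0.000133). Among those that fell were the collagen genes COL1A1, COL1A2, COL5A2 and COL6A1 and the surface genes CD44 and DDR2. The contractile genes ACTA2 and CALD1 also fell, so genes of this kind went both ways. COL1A1 and DDR2 were not called with the length and GC trend removed (limma adjusted p = 0.304 and 0.916), DDR2 in 7 of 8 fits with a library left out, and TGFBI with the mitochondrial genes removed and in 3 of 8 such fits. COL1A2 fell from 79.4 ± 12.2 to 43.9 ± 5.53 TPM. COL1A1 and COL1A2 are also the tested fibroblast markers. COL1A1 needed its DMSO libraries to pass the filter, with 1.66 to 2.17 TPM there, while with EB only replicate 1 (1.05 TPM) reached 1 TPM. The call of COL1A1 thus does not support the count of genes that fell. The sum of the 7 fibroblast markers was 64.1 to 91.8 TPM with DMSO and 38.8 to 50.7 with EB, while DCN and LUM were at 0 and PDGFRA and PDGFRB did not exceed 0.269 TPM. Mesenchymal genes of stroma such as SPARC, POSTN and GREM1 were listed at 0 in all libraries.

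Genes of corepressors that SNAI and ZEB factors recruit all passed the filter, with 20 of 20 tested. Of the genes whose proteins set the stability of these factors, 16 of 17 were tested. Of the corepressors, 4 fell, 2 rose and 14 were not called, that is 30% called against 40.3% of all tested genes. SIN3A fell by 1.02 on the log2 scale (limma adjusted p = 0.0102) and SUZ12, a Polycomb subunit, by 0.79, whereas EZH2 and EED, subunits of the same complex, rose by 0.34 and 0.38. Neither EZH2 nor EED was called with the mitochondrial genes removed or in 6 of the 8 fits that leave out a library. RCOR1 fell by 0.52 and EHMT2 by 0.40, and neither was called with the length and GC trend removed (limma adjusted p = 0.0939 and 0.207). With a library left out, RCOR1 was not called in 6 of 8 fits and EHMT2 in 7 of 8, and EHMT2 was not called with median-ratio scaling (limma adjusted p = 0.0561). Of the stability genes, 3 fell, 1 rose and 12 were not called, that is 25% called against the same 40.3%. GSK3B, whose kinase marks Snail for degradation, went from 17.0 ± 1.74 to 10.8 ± 0.943 TPM (log2 fold change −0.61, limma adjusted p = 0.00444), and it was not called with the length and GC trend removed (−0.19, limma adjusted p = 0.0970). PSMD14, a proteasomal deubiquitinase, rose by 0.76 (limma adjusted p = 0.00147). FBXW7 fell by 0.72 and COPS2 by 0.68, with limma adjusted p = 0.154 and 0.175 once the trend was removed, and they were not called in 4 and 6 of the 8 fits with a library left out.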

How the data were processed

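The authors deposited 1 table of TPM for 8 libraries, with 20263 human Ensembl identifiers, of which 20148 matched a symbol. Reads were processed in CLC Genomics Workbench per the methods, which also list StringTie and other tools and name both a mouse and a human build. Which tool gave the TPM is not stated there. Positions and lengths are from GENCODE on hg38, and the authors' annotation may differ. Depth is unknown. The fit used limma 3.58.1 under R 4.3.3 (lmFit, eBayes without trend) on log2(TPM + 1) of the 11725 genes that had 1 TPM or more in 4 or more libraries, with Benjamini-Hochberg adjustment. Single genes below the filter were compared by exact permutation tests (Python 3.11.15, scipy 1.17.1). No set test was run. The steps were tested on simulated data. All members are named, and of each list the 4 called genes with the largest absolute log2 fold change. Other list genes and the keratins were named after their values were seen. The members and lists were chosen with earlier results of these data known. No member was called, so no genes like one were sought. Same-numbered libraries had correlations of −0.09 to 0.28 between their deviations, and the numbers were not taken to pair them. The filter used the deposited TPM of all 8 libraries in each alternative but those that change the filter. Results were recomputed with a pseudocount of 0.1, without the filter or with a minimum of 5 TPM, median-ratio scaling, quantile normalization, removal of mitochondrial genes, removal of the length and GC trend (natural splines), an intensity trend, a replicate block, each library left out, and the thresholds the study names. Some list genes are counted but not reported here by name.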

Additional observations from a re-analysis of the deposited data

Results flagged for a closer look

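Single libraries far from the other 3 of their group (Dixon's test) were found in 5 of 72 pairs of gene and group examined, where chance gives about 1 in 20. In DMSO replicate 4, which had the highest mitochondrial share, JUP stood at 53.2 TPM against 67.2 to 69.9 in the other DMSO libraries. EHF stood at 16.2 TPM in that library against 31.9 to 33.1, and COL5A2 at 49.9 against 75.9 to 77.6. These flags rest on the deposited TPM, of which mitochondrial genes took 39.0% in that library and 17.0% to 21.1% in the other DMSO libraries. SOX4 was at 1.96 TPM in EB replicate 2 against 1.12 to 1.22 in the other EB libraries. FBXW7 was at 8.43 TPM in DMSO replicate 2 against 3.73 to 4.24, and without that library its log2 fold change was −0.49 (limma adjusted p = 0.0767).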

How the results depend on the processing

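Calls over all genes numbered 4729 (37.7% of them higher with EB), 6147 with median-ratio scaling (51.2% higher), 5546 with quantile normalization (50.2%), 6280 with mitochondrial genes removed (22.9%) and 5375 with the length and GC trend removed (50.0%). They numbered 3382 to 6159 with a library left out, the highest without DMSO replicate 4. Of the 11725 genes tested, 1785 were higher and 2944 lower as reported. These were 3146 and 3001 with median-ratio scaling, and 2782 and 2764 with quantile normalization. Of 11712 genes left after mitochondrial genes were removed, 1440 were higher and 4840 lower. Of 11698 with the length and GC trend removed, 2689 were higher and 2686 lower. With a library left out, 1270 to 1826 were higher and 2073 to 4333 lower. Depth is unknown, and genes near 0 TPM are limited by it to an unknown degree. At a TPM of at least 5, 1621 of 9490 genes were higher and 2211 lower, and the study's thresholds were passed by 2.08%. The list counts below are to be read beside these whole-table counts. Causes of the changes below were not tested.

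Members called higher were 0 as reported, 1 with median-ratio scaling and 2 with quantile normalization, and 0 with any library left out; members called lower were 0 throughout. ZEB1 changed sign with quantile normalization (0.16), with the length and GC trend removed (0.23) and without DMSO replicate 3 (0.14), and ranged from −0.25 to 0.14 with a library left out. The epithelial minus mesenchymal difference was −0.68 with a pseudocount of 0.1, and −0.19 to −0.12 with a library left out.

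Junction genes called higher were 1 as reported, 0 at a TPM of at least 5 and with the study's thresholds, 2 with median-ratio scaling and the length and GC trend removed, 3 with quantile normalization, and 1 to 2 with a library left out; those lower were 1 with the study's thresholds and 7 to 9 with a library left out. Cadherin partners called higher were 0 with the study's thresholds, and those lower 3 at a TPM of at least 5, 8 with mitochondrial genes removed, 2 with the study's thresholds and 5 to 7 with a library left out. Epithelial regulators called higher were 2 with a pseudocount of 0.1, no filter, either scaling and the trend removed, and 0 at a TPM of at least 5 and with the study's thresholds; those lower were 5 without a filter and 1 at a TPM of at least 5 and with the study's thresholds. Further transcription factors called higher were 1 with the trend removed; those lower were 1 at a TPM of at least 5, 4 with mitochondrial genes removed, 0 with the study's thresholds and 2 to 5 with a library left out, 5 being without DMSO replicate 4. Mesenchymal genes called higher were 1 and lower 0 with the study's thresholds, and 5 to 6 and 8 to 11 with a library left out.

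Corepressors called higher were 1 with a pseudocount of 0.1, 5 with median-ratio scaling and the trend removed, 0 with mitochondrial genes removed and the study's thresholds, and 0 to 2 with a library left out; those lower were 8 with quantile normalization, 10 with mitochondrial genes removed, 0 with the study's thresholds and 2 to 8 with a library left out. Stability genes called higher were 2 without a filter, with mitochondrial genes removed and with an intensity trend, 3 with either scaling, 4 with the trend removed, 0 with the study's thresholds and 1 to 2 with a library left out; those lower were 1 without a filter and with the trend removed, 5 with median-ratio scaling, 6 with mitochondrial genes removed, 0 with the study's thresholds and 1 to 6 with a library left out.

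With a replicate block, calls over all genes numbered 5756, the members remained uncalled, and the stability genes had 2 higher and 5 lower. The same-numbered correlations were 0.18, 0.05, −0.09 and 0.28, and those of the other pairs lay between −0.24 and 0.13. These values do not settle whether the numbers pair the libraries.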
